A study of Mus musculus with 14 samples.

Results

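Genes that are classic targets of the let-7 microRNAs in other tissues were followed in full-grown mouse oocytes, and the question was whether their transcripts rise where small RNA function is impaired. *Lin28a*, *Lin28b*, *Trim71*, *Hmga1*, *Hmga2*, *Igf2bp1*, *Igf2bp2*, *Igf2bp3* and *Arid3a* were taken by name as known let-7 targets, not by a rule on their values. Earlier results of these data were known when they were chosen. They are 9 of 20337 genes with a symbol among 26495 RefSeq transcripts counted. All 9 were detected and tested in every comparison. They did not move together. *Trim71*, *Hmga2* and *Igf2bp1* rose in both *Ago2* mutants and in oocytes labelled *Dicer* KO, *Igf2bp2* fell in all 3 of them, and *Lin28b* did not pass the test in any.

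RNA was sequenced from germinal vesicle-intact oocytes, stripped of cumulus cells, of females 4 to 6 weeks old that had received 5 IU of equine chorionic gonadotropin 48 h earlier. Each library held 20 oocytes pooled from 3 mice by the labels (3 or 4 by the study's methods), on a mixed background that was mostly C57BL6. *Ago2* fl/fl controls (3 libraries) carried 2 floxed *Ago2* alleles. *Ago2* ADH oocytes (3 libraries) carried 1 floxed allele and 1 knock-in allele whose product binds small RNAs but cannot cleave their targets. *Ago2* null oocytes (2 libraries) had floxed alleles excised by Cre. In both, Cre was driven by the *Zp3* promoter, which is active in growing oocytes, so protein made before excision may persist. *Dicer* WT (3 libraries) and *Dicer* KO (3 libraries) were wild type or carried an oocyte-specific *Dicer* deletion. Total counts on transcripts were 29380403 to 58285057 per library and levels are given as CPM, the counts scaled to a common library total by TMM (trimmed mean of M values) over the 14 libraries. Before that TMM step, 3 counts correspond to 0.0515 to 0.102 CPM.

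Let-7 is a family of microRNAs known for its part in developmental timing and differentiation. Its members guide ARGONAUTE proteins, with TNRC6 partners, to matching sites in the 3′ untranslated region (UTR) of messenger RNAs, which are then translated less and degraded sooner. LIN28 proteins bind let-7 precursors and block their maturation, and *Lin28* transcripts are themselves let-7 targets. In full-grown mouse oocytes, repression by microRNAs is known to be weak, whereas endogenous siRNAs, which need DICER and the cleavage activity of AGO2, are active.

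The mature let-7 sequences are shown because all target matches below are read against their seed, bases 2 to 8, given in capitals. Of 11 mature mouse names in RefSeq (GRCm38.p6), 10 share the first seed below and 1, let-7j, has another. The copies shown lie at chr13:48538239-48538260 (minus strand, let-7a), chr13:48536078-48536099 (minus, let-7d), chr9:106178846-106178867 (plus, let-7g), chrX:151913229-151913250 (plus, miR-98) and chr3:140028281-140028304 (plus, let-7j).
let-7a: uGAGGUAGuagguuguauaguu
let-7d: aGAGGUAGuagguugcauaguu
let-7g: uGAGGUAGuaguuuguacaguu
miR-98: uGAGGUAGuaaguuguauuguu
let-7j: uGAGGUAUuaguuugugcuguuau

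A 7-base match was searched as CTACCTC and an 8-base match as CTACCTCA, the same letters followed by A, on the transcript strand of annotated 3′ UTRs (GENCODE M21, GRCm38). Each 8-base match is therefore also a 7-base match. Of 18966 genes with a 3′ UTR, 1513 (7.98%) held a 7-base and 523 (2.76%) an 8-base match. The 9 genes held 23 7-base matches, of which 14 were 8-base matches, and 8 of the 9 had an 8-base match. Genes with an 8-base match had a median 3′ UTR of 2224 bases against 781 in all genes, so longer UTRs hold more matches. *Trim71* was 1 of 2 genes with 4 or more 8-base matches. A match is a string of letters, and its use as a site was not measured here.

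The windows below end at the match, with the matching bases in capitals, and are shown for the 3 genes that rose in all mutant groups and for genes that did not, so that the letters can be compared. Each window lies within 1 exon. The *Trim71* windows are at chr9:114512472-114512493, chr9:114512376-114512397, chr9:114509047-114509068 and chr9:114509021-114509042 (minus strand). The last 2 lie beyond the end of the RefSeq gene, chr9:114511268-114564369, on which reads were counted. The *Hmga2* windows are at chr10:120364224-120364245 and chr10:120362987-120363008 (minus), the *Igf2bp1* windows at chr11:95961778-95961799, chr11:95959357-95959378 and chr11:95958763-95958784 (minus), *Lin28b* at chr10:45381022-45381043 (minus), *Lin28a* at chr4:134005189-134005210 (minus), *Igf2bp2* at chr16:22059473-22059494 (minus), *Igf2bp3* at chr6:49086787-49086808 (minus), *Arid3a* at chr10:79953896-79953917 (plus) and *Hmga1* at chr17:27563278-27563299 (plus).
Trim71 site 1: acattgcctaagtcCTACCTCA
Trim71 site 2: gtgataatttctatCTACCTCA
Trim71 site 3: ttagtatggattttCTACCTCA
Trim71 site 4: tggcaaaaagttgtCTACCTCA
Hmga2 site 1: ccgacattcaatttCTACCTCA
Hmga2 site 2: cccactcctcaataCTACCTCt
Igf2bp1 site 1: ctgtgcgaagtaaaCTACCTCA
Igf2bp1 site 2: agcagtgctattaaCTACCTCA
Igf2bp1 site 3: tataaatggatgaaCTACCTCA
Lin28b site 1: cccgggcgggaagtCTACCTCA
Lin28a site 1: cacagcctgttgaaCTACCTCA
Igf2bp2: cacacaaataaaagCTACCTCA
Igf2bp3: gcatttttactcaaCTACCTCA
Arid3a site 1: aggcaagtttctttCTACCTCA
Hmga1: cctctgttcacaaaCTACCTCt

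**Figure D1:**
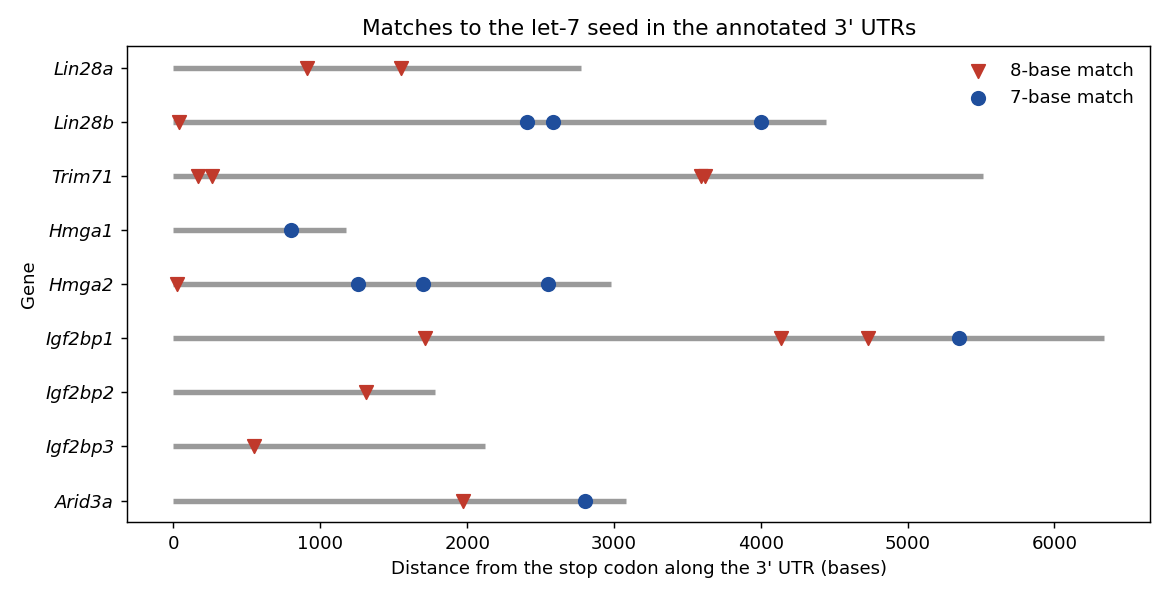
Matches to the let-7 seed along the annotated 3′ UTR of each gene, drawn as distance from the stop codon in bases; grey bars are UTR lengths, triangles 8-base and circles the other 7-base matches. *Lin28b*, *Trim71*, *Hmga2* and *Igf2bp1* have 4 matches each, and *Hmga1*, *Igf2bp2* and *Igf2bp3* 1 each.

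The targeted genes and the purity of the samples were checked first. *Ago2* stood at 24.5, 25.6 and 24.1 CPM in *Ago2* fl/fl, 13.8, 13.0 and 12.4 CPM in *Ago2* ADH, and 7.18 and 5.27 CPM in *Ago2* null libraries. *Dicer1* went against its label: it was at 750, 745 and 779 CPM in *Dicer* WT and at 1928, 1815 and 1669 CPM in the libraries labelled *Dicer* KO. The counts cover the whole transcript, and the exons deleted are not given in the sources used here, so this count does not show whether functional *Dicer* was lost. All 12 oocyte markers were present in every group, summing to 13430 to 21605 CPM per library. The 13 granulosa and cumulus markers summed to 80.6 to 87.9 CPM in *Ago2* fl/fl, 67.6 to 73.1 in *Ago2* ADH, 60.3 to 64.2 in *Ago2* null, 99.7 to 107 in *Dicer* WT and 83.4 to 88.1 in libraries labelled *Dicer* KO, most of it *Cyp19a1* and *Nr5a2*. *Foxl2* was at 0 in *Ago2* fl/fl and *Dicer* WT. It had 2, 7 and 4 counts in *Ago2* ADH, 0 and 4 in *Ago2* null and 0, 1 and 5 in libraries labelled *Dicer* KO. The 5 theca and stroma markers stayed at or under 1.14 CPM and the 2 leukocyte markers matched at or under 0.197 CPM. Tallies kept apart, for alignments outside any feature or for reads with several alignments, made up 34.0 to 42.0% of all counts and tallies in the 6 control libraries and 52.7 to 65.0% in the 8 mutant libraries. Each *Ago2* genotype had a sequencing lane of its own in the deposited file names, so the lane and the *Ago2* genotype cannot be told apart. The part of these differences in the results below was not tested. In such bulk samples, fewer cells of a type and less RNA per cell cannot be told apart.

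Per kilobase of transcript, the levels of the 9 genes in *Ago2* fl/fl oocytes spanned a wide range. *Igf2bp2* led with 152 ± 2.06 CPM per kb (mean ± SD, n = 3 libraries), higher than 98.2% of 20241 genes with a known length. *Hmga1* followed with 34.3 ± 1.38, *Hmga2* with 14.9 ± 0.584, *Igf2bp3* with 12.2 ± 0.239, *Lin28a* with 7.32 ± 0.704, *Lin28b* with 5.34 ± 0.280 and *Trim71* with 3.16 ± 0.127 CPM per kb. *Arid3a* was at 0.482 ± 0.0336 and *Igf2bp1* last at 0.0485 ± 0.0251 CPM per kb, above 46.8% and 30.9% of genes. Between neighbours in this order no ranges over the libraries overlapped. *Dicer* WT oocytes had the same order, again without overlap between neighbours. The length used for *Trim71*, 9332 bases, runs past the end of the RefSeq gene on which its reads were counted. Its level per kb may therefore be too low in every group, and its place in the order is uncertain. The place of *Hmga1* is uncertain too, since another gene had nearly the same counts, as given below.

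The order changed in the mutants. *Hmga2* reached 32.2 CPM per kb in *Ago2* ADH and 29.1 in *Ago2* null libraries, where its range overlapped that of *Hmga1* (36.5 and 32.8). In libraries labelled *Dicer* KO it stood at 43.8 CPM per kb, above *Hmga1* at 27.9 without overlap, by the uncertain counts of *Hmga1*. *Trim71* passed *Lin28b* in all 3, by the uncertain length used for *Trim71*. With that length, the ranges of *Trim71*, *Lin28a* and *Lin28b* overlapped with their neighbours in *Ago2* null and in libraries labelled *Dicer* KO. *Igf2bp1* remained lowest, at 0.805 CPM per kb in libraries labelled *Dicer* KO, where it overlapped with *Arid3a* at 0.960.

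**Figure D2:**
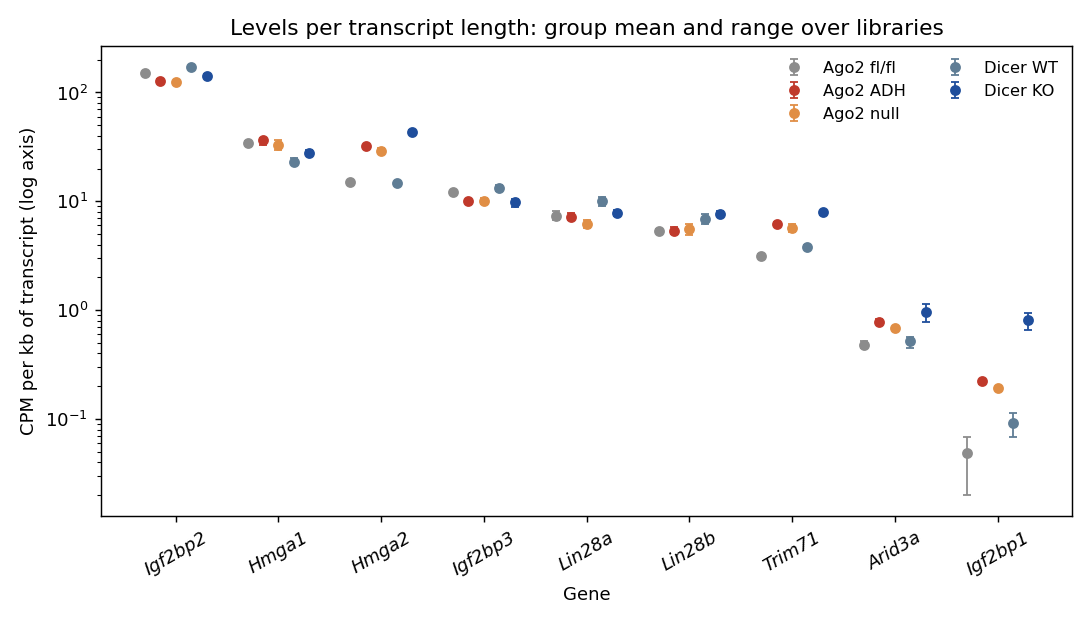
Mean CPM per kb of transcript on a log axis for each gene in the 5 groups, with bars from the lowest to the highest library. *Igf2bp2* is highest in every group (124 to 170 CPM per kb) and *Igf2bp1* lowest.

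Over all transcripts tested in *Ago2* ADH against *Ago2* fl/fl, 20.5% were called higher and 20.1% lower at an FDR under 1% (the false discovery rate of Benjamini and Hochberg, from the quasi-likelihood test of edgeR). Of the 9 genes, 4 were called higher and 2 lower. In *Ago2* null against *Ago2* fl/fl these shares were 18.1% and 19.1%, and 3 of the 9 were called higher and 1 lower. In libraries labelled *Dicer* KO against *Dicer* WT 16.7% and 17.8% were called, and 5 of the 9 genes were higher and 3 lower. As shares of the 9 genes, 44.4%, 33.3% and 55.6% were higher and 22.2%, 11.1% and 33.3% lower, so that the downward shares were near or under the background in both *Ago2* comparisons. The 44.4% counts *Igf2bp1*, which met the low-count filter in that comparison through the *Ago2* ADH libraries only. It was called without that filter too. The median log2 fold change of the 9 was 0.14, 0.10 and 0.27 in the 3 comparisons, against 0.012, 0.010 and 0.00012 over all genes tested. Each median of the 9 is the value of 1 gene. It was *Hmga1*, whose counts are uncertain as given below, in *Ago2* ADH and in libraries labelled *Dicer* KO. In *Ago2* null it was *Lin28b*, which was not called. These medians therefore do not show a shift of the 9 as a set. The *Ago2* comparisons share their control libraries. With 1 transcript per gene, 21.0% of genes were called higher and 19.8% lower in *Ago2* ADH, 18.6% and 18.7% in *Ago2* null, and 16.9% and 17.6% in libraries labelled *Dicer* KO. Beside these shares, 33.3% of the 12 oocyte markers were higher and 33.3% lower in *Ago2* ADH, 33.3% and 25.0% in *Ago2* null, and 8.33% and 33.3% in libraries labelled *Dicer* KO. Of the granulosa markers tested, 1 of 10 was higher and 3 lower in *Ago2* ADH, 1 of 11 was lower in *Ago2* null and 3 of 9 were lower in libraries labelled *Dicer* KO, and the part of these marker differences in the results for the 9 genes was not tested.

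**Figure D3:**
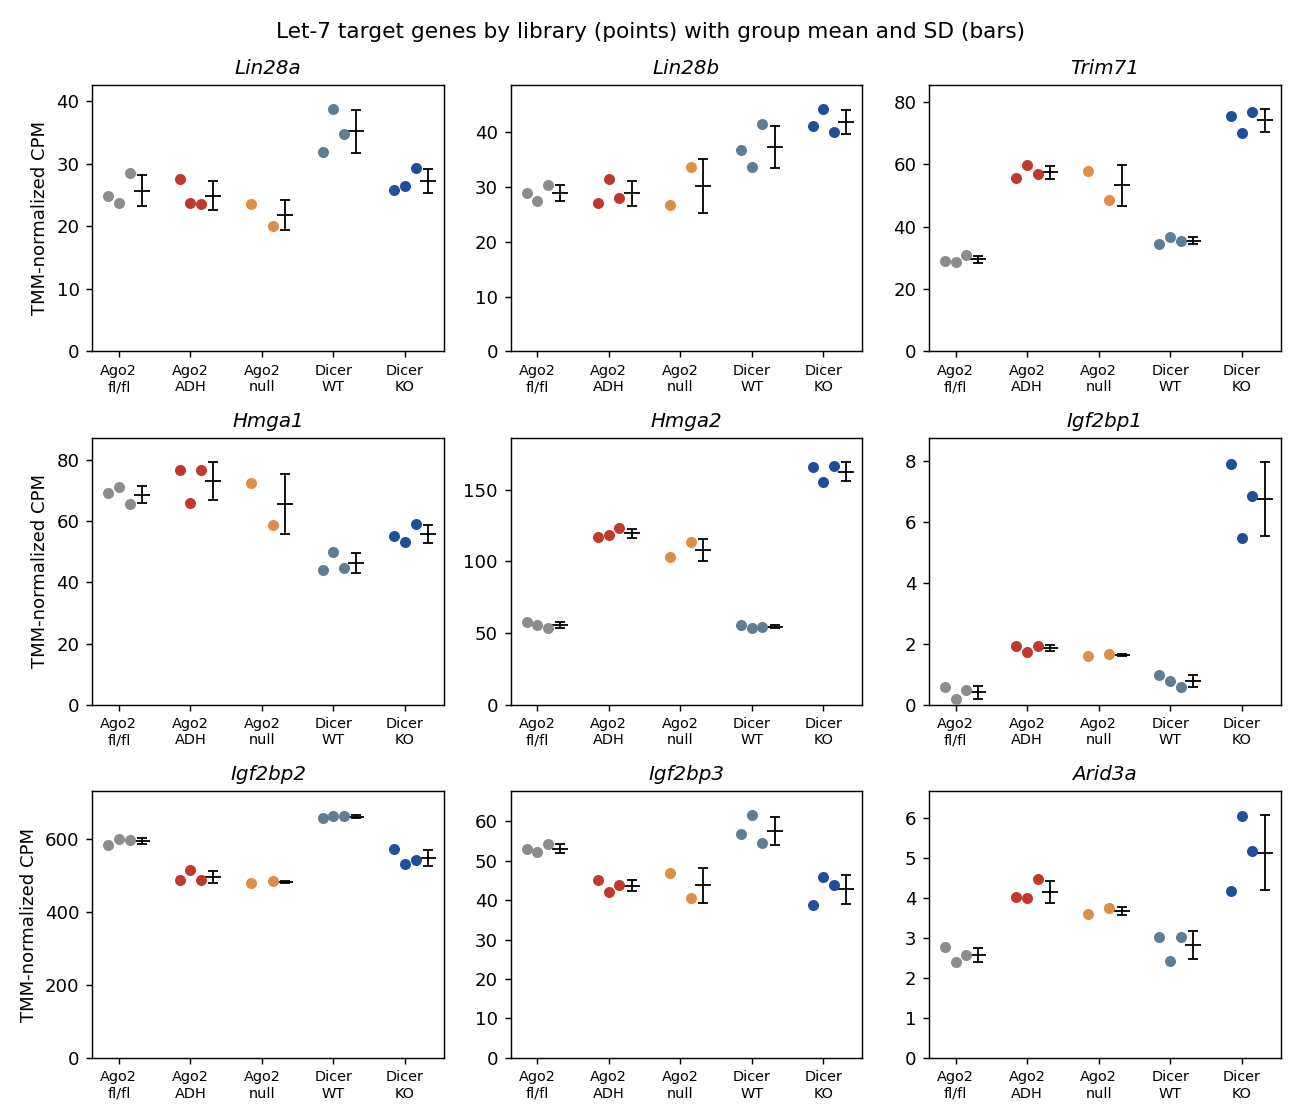
TMM-normalized CPM of each gene in each of the 14 libraries (points), on axes that start at 0, with group mean and SD beside them. *Trim71*, *Hmga2*, *Igf2bp1* and *Arid3a* show every mutant library above every control library of its series, and *Igf2bp2* and *Igf2bp3* every mutant library below. The share of all transcripts without overlap was not taken.

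*Lin28a* encodes an RNA-binding protein that blocks let-7 maturation in pluripotent cells. Its levels were 24.8, 23.7 and 28.4 CPM in *Ago2* fl/fl, 27.6, 23.6 and 23.5 CPM in *Ago2* ADH, and 23.5 and 20.1 CPM in *Ago2* null oocytes. *Ago2* ADH overlapped the controls (log2 fold change 0.0067 ± 0.092 SE, adjusted p = 0.960), and both *Ago2* null libraries lay under them without passing the test (-0.19 ± 0.10, adjusted p = 0.132). In *Dicer* WT libraries it had 31.9, 38.7 and 34.8 CPM and those labelled *Dicer* KO 25.8, 26.4 and 29.3 CPM. *Lin28a* fell by 0.36 ± 0.10 on the log2 scale there (adjusted p = 0.00459), with no overlap. The call was lost without *Dicer* WT replicate 2 or 3 or without replicate 1 or 2 labelled *Dicer* KO (adjusted p = 0.0127 to 0.0357).

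*Lin28b*, its paralog with the same effect on let-7, had 28.8, 27.4 and 30.4 CPM in *Ago2* fl/fl, 27.1, 31.4 and 27.9 CPM in *Ago2* ADH, and 26.7 and 33.6 CPM in *Ago2* null oocytes. It had 36.7, 33.7 and 41.4 CPM in *Dicer* WT and 41.1, 44.2 and 39.9 CPM in libraries labelled *Dicer* KO. Groups overlapped in every comparison, and log2 fold changes were 0.047 ± 0.079, 0.10 ± 0.10 and 0.17 ± 0.090 (SE), with adjusted p = 0.644, 0.419 and 0.136. Its 3′ UTR holds 4 7-base matches, as many as those of the 3 genes that rose in all mutant groups. Of these, 1 is an 8-base match, against 4 in *Trim71*, 3 in *Igf2bp1* and 1 in *Hmga2*. *Trim71* sites 3 and 4 lie beyond the end of the RefSeq gene on which its reads were counted.

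*Trim71* encodes an RNA-binding ubiquitin ligase of early development, the mammalian counterpart of a let-7 target first found in worms. It stood at 28.9, 28.7 and 30.9 CPM in *Ago2* fl/fl, 55.6, 59.7 and 56.9 CPM in *Ago2* ADH, and 57.8 and 48.6 CPM in *Ago2* null oocytes. Every mutant library exceeded every control. The log2 fold change was 1.01 ± 0.067 (SE; 2.01-fold, adjusted p = 3.24e-10) in *Ago2* ADH and 0.89 ± 0.085 (1.86-fold, adjusted p = 2.25e-07) in *Ago2* null. In the *Dicer* libraries the levels were 34.4, 36.7 and 35.5 CPM in WT and 75.4, 69.9 and 76.7 CPM in those labelled KO, again without overlap (1.07 ± 0.075, 2.09-fold, adjusted p = 1.20e-09). All calls held with any 1 library left out.

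*Hmga1* encodes a chromatin protein that binds AT-rich DNA. Its counts are uncertain: a second gene, *Hmga1b* on chromosome 11, had nearly the same count in each library, for example 3986 against 4002 for *Hmga1* in *Ago2* fl/fl replicate 1. How far reads were shared between the 2 genes was not tested. *Hmga1* had 69.2, 71.1 and 65.7 CPM in *Ago2* fl/fl, 76.7, 66.0 and 76.7 CPM in *Ago2* ADH, and 72.6 and 58.8 CPM in *Ago2* null libraries, which overlapped. The log2 fold changes were 0.14 ± 0.068 (SE, adjusted p = 0.0971) and -0.025 ± 0.083 (adjusted p = 0.830), and without *Ago2* ADH replicate 2 the first passed (adjusted p = 0.00679). *Dicer* WT libraries had 44.1, 50.0 and 44.8 CPM and those labelled *Dicer* KO 55.1, 53.2 and 59.0 CPM. *Hmga1* rose there by 0.27 ± 0.080 on the log2 scale (adjusted p = 0.00864), without overlap. This call was lost in 5 of the 6 fits that left out 1 library, namely those without *Dicer* WT replicate 1 or 3 or without any of the 3 replicates labelled *Dicer* KO (adjusted p = 0.0137 to 0.0415).

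*Hmga2*, a chromatin protein of embryonic and proliferating cells and the best known let-7 target, had 57.5, 55.3 and 53.2 CPM in *Ago2* fl/fl, 117, 118 and 123 CPM in *Ago2* ADH, and 103 and 114 CPM in *Ago2* null oocytes. All mutant libraries were far above all controls. The log2 fold change was 1.16 ± 0.056 (SE; 2.23-fold, adjusted p = 2.71e-12) in *Ago2* ADH and 1.01 ± 0.069 (2.01-fold, adjusted p = 3.81e-09) in *Ago2* null. *Dicer* WT libraries had 55.4, 53.7 and 54.4 CPM, close to *Ago2* fl/fl, and those labelled *Dicer* KO 166, 155 and 167 CPM, without overlap. The log2 fold change was 1.58 ± 0.065 there (2.99-fold, adjusted p = 3.03e-13). These calls too held with any 1 library left out.

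*Igf2bp1* encodes a protein that binds and stabilizes messenger RNAs in embryonic cells. It was the least abundant of the 9, with 33, 10 and 25 counts (0.570, 0.169 and 0.478 CPM) in *Ago2* fl/fl libraries. It had 104, 95 and 83 counts (1.91, 1.74 and 1.92 CPM) in *Ago2* ADH and 90 and 87 counts (1.61 and 1.65 CPM) in *Ago2* null libraries. The groups did not overlap, and the log2 fold change was 2.24 ± 0.37 (SE; 4.73-fold, adjusted p = 5.04e-05) in *Ago2* ADH and 2.05 ± 0.43 (4.13-fold, adjusted p = 0.000921) in *Ago2* null. In the first comparison it met the filter on low counts through the *Ago2* ADH libraries only, since 2 of the 3 controls reached the 0.185 CPM it required in 3 libraries; it was called without that filter too. *Dicer* WT libraries had 37, 31 and 24 counts (0.957, 0.772 and 0.572 CPM) and those labelled *Dicer* KO 245, 155 and 241 counts (7.90, 5.48 and 6.84 CPM). This was the steepest rise among the 9, of 3.14 ± 0.26 on the log2 scale (8.83-fold, adjusted p = 1.02e-08). All 3 calls held with any 1 library left out.

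*Igf2bp2*, of the same family of mRNA-binding proteins and the most abundant of the 9, moved the other way. It had 585, 600.1 and 597 CPM in *Ago2* fl/fl, 489, 517 and 487 CPM in *Ago2* ADH, and 481 and 485 CPM in *Ago2* null oocytes. Every mutant library was under every control, and it fell by 0.21 ± 0.044 (SE, adjusted p = 0.000568) and by 0.26 ± 0.052 (adjusted p = 0.000578) on the log2 scale. The *Dicer* WT libraries had 658, 664 and 664 CPM and those labelled *Dicer* KO 573, 531 and 542 CPM, a fall by 0.26 ± 0.057 (adjusted p = 0.000829). The call in *Ago2* null was lost without *Ago2* fl/fl replicate 2 (adjusted p = 0.0107) and the last without replicate 2 labelled *Dicer* KO (adjusted p = 0.0117).

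*Igf2bp3*, the third member of this family of mRNA-binding proteins, had 52.9, 52.2 and 54.2 CPM in *Ago2* fl/fl, 45.2, 42.2 and 43.7 CPM in *Ago2* ADH, and 46.8 and 40.7 CPM in *Ago2* null oocytes. Mutant libraries were under the controls without overlap. It fell by 0.23 ± 0.064 (SE, adjusted p = 0.00485) on the log2 scale in *Ago2* ADH, a call lost without *Ago2* fl/fl replicate 2 or 3 or *Ago2* ADH replicate 2 or 3 (adjusted p = 0.0101 to 0.0212). In *Ago2* null the log2 fold change was -0.24 ± 0.078 (adjusted p = 0.0167), and it passed without *Ago2* null replicate 1 (adjusted p = 0.00443). *Dicer* WT libraries had 56.7, 61.5 and 54.5 CPM and those labelled *Dicer* KO 38.7, 45.9 and 43.8 CPM, a fall by 0.42 ± 0.083 (adjusted p = 0.000387).

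*Arid3a* encodes a DNA-binding transcription factor. It had 2.77, 2.41 and 2.58 CPM in *Ago2* fl/fl, 4.02, 3.998 and 4.49 CPM in *Ago2* ADH, and 3.62 and 3.75 CPM in *Ago2* null oocytes, from 135 to 219 counts per library. The groups did not overlap. *Arid3a* rose by 0.74 ± 0.17 (SE; 1.67-fold, adjusted p = 0.00144) in *Ago2* ADH, whereas in *Ago2* null its log2 fold change of 0.55 ± 0.20 missed the threshold (adjusted p = 0.0288). The *Dicer* WT libraries had 3.03, 2.41 and 3.03 CPM and those labelled *Dicer* KO 4.19, 6.05 and 5.19 CPM, a rise by 0.87 ± 0.22 (1.83-fold, adjusted p = 0.00282). This last call was lost without *Dicer* WT replicate 2 or replicate 2 labelled *Dicer* KO (adjusted p = 0.0192 and 0.0228).

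**Figure D4:**
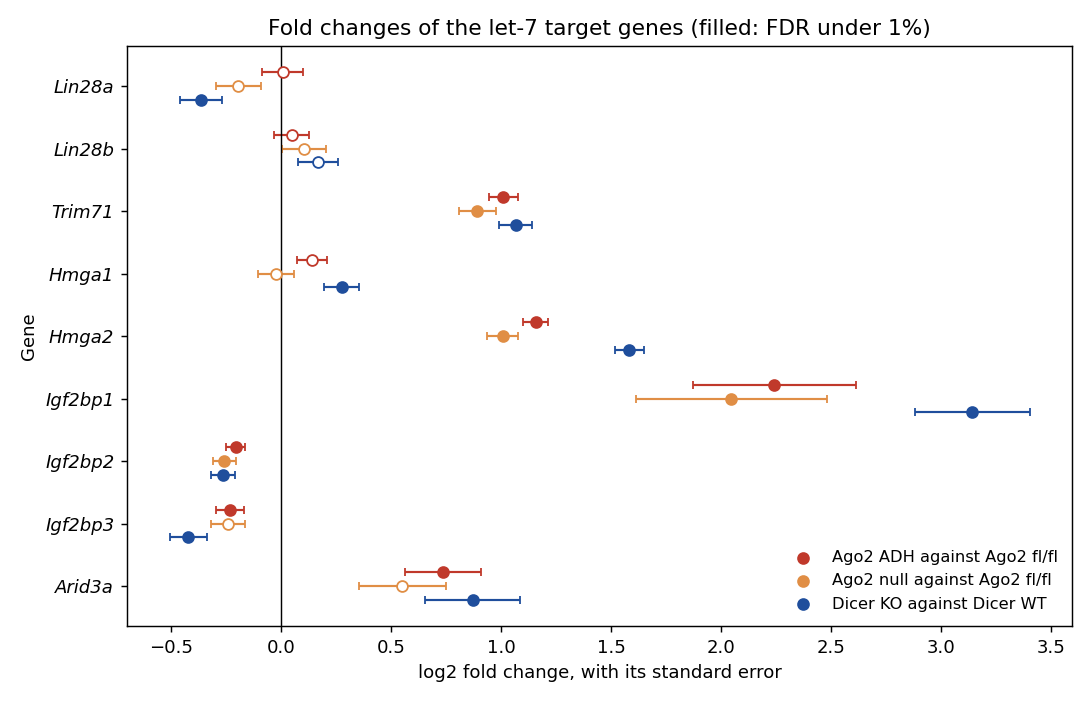
Log2 fold change with its standard error for each gene in the 3 comparisons; filled points passed an FDR of 1%, open points did not. *Trim71*, *Hmga2* and *Igf2bp1* lie well to the right of 0 in all 3 (0.89 to 3.14), and *Igf2bp2* and *Igf2bp3* to the left.

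The catalytically inactive and the null *Ago2* oocytes were compared directly, to ask whether the targets stand at different levels in them. The contrast is not one of cleavage alone. *Ago2* ADH oocytes had a mean of 13.1 CPM of *Ago2*, against 24.7 in *Ago2* fl/fl and 6.22 in *Ago2* null. The study also reported lower mature microRNA levels, let-7e among those assayed, in both mutants. Between *Ago2* ADH and *Ago2* null, 0.0673% of transcripts were called higher and 0.0518% lower. None of the 9 genes was called by edgeR (0 with an unadjusted p under 0.05, and 0 by DESeq2), and log2 fold changes lay between -0.074 and 0.18. With 3 and 2 libraries, differences of this size were not resolved. The smallest adjusted p of the edgeR test was 0.558, for *Hmga2* at 0.13. Of the lists described below, *Ago2* itself was higher in *Ago2* ADH than in *Ago2* null (log2 fold change 1.06 ± 0.15 SE, adjusted p = 0.00163), and so was *Ccnd2*, a cyclin and further let-7 target named here because it was the 1 called of 21 (1.30 ± 0.17, adjusted p = 0.000748).

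Whether the *Ago2* and *Dicer* effects differ in size was tested as an interaction. For *Ago2* ADH minus *Dicer* KO, 3.55% of transcripts were called (234 higher and 458 lower, but 346 and 351 with plain library totals and 513 and 591 by DESeq2). For *Ago2* null minus *Dicer* KO, the share was 3.01% (195 higher and 403 lower, but 261 and 277 with plain library totals). *Hmga2* was the 1 gene of the 9 called in each. Its effect was smaller in *Ago2* ADH by 0.48 ± 0.082 (SE; log2 difference -0.48, adjusted p = 0.000606) and in *Ago2* null by 0.61 ± 0.094 (log2 difference -0.61, adjusted p = 0.000318) than in libraries labelled *Dicer* KO, under every alternative run. *Igf2bp1* differed by more, -0.95 and -1.13, without passing (adjusted p = 0.199 and 0.168).

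Another 24 genes, known as let-7 targets in other cells, were counted as a list. In *Ago2* ADH 2 of the 20 tested were higher and 6 lower, in *Ago2* null 2 and 6 of 20, and in libraries labelled *Dicer* KO 1 and 7 of 19. In all 3 comparisons the share of the list called higher was under that of all genes tested (21.0%, 18.6% and 16.9%), and the share called lower was above it (19.8%, 18.7% and 17.6%). Their median log2 fold changes were -0.14, -0.15 and -0.14. Among those that fell were *Cdk6*, a cell cycle kinase (-1.21 in *Ago2* ADH and -1.15 in libraries labelled *Dicer* KO), *Igf1r*, the IGF1 receptor (-0.89 and -1.06) and *Plagl2*, a zinc-finger factor (-0.30 and -0.75). *Nr6a1*, an orphan nuclear receptor and a member of this list picked out after its values were seen for its 8 7-base matches, rose by 0.35, 0.22 and 0.36 (adjusted p = 7.50e-06, 0.00461 and 0.00011).

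Genes of let-7 processing and of the silencing complexes that use it were taken as 2 lists. Of all genes tested, 21.0% were higher and 19.8% lower in *Ago2* ADH, and 18.6% and 18.7% in *Ago2* null. In libraries labelled *Dicer* KO these shares were 16.9% and 17.6%. Of 10 processing genes, *Dicer1* was the one called in *Ago2* ADH (log2 fold change 0.67) and in *Ago2* null (0.59), both higher. This 1 of 10, with none lower, was under the shares of all genes in both. In libraries labelled *Dicer* KO, *Dicer1* (1.26) and *Khsrp* (0.31), an RNA-binding protein of let-7 maturation, were higher, and *Drosha* (-0.39), the nuclear RNase, and *Tarbp2* (-0.40), a DICER partner, were lower. Of 7 silencing complex genes, *Ago2* (-0.87) and *Ago3* (-0.23) were lower and *Tnrc6a* (0.35) higher in *Ago2* ADH. Besides the 2 Argonaute genes, *Tnrc6b* fell in *Ago2* null, and *Ago2* was the one called, lower, in libraries labelled *Dicer* KO (-0.56). The 2 higher and 2 lower of 10 processing genes in libraries labelled *Dicer* KO were near the shares of all genes. Whether either list differed from all genes was not tested.

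Genes that hold let-7 matches were described as classes, without the 9 genes. In *Ago2* ADH the median log2 fold change was 0.014 over 12369 tested genes with no 7-base match, 0.0078 over 795 with a 7-base match only, -0.024 over 390 with 1 8-base match and 0.033 over 16 with 2 or more. In *Ago2* null these medians were 0.014, -0.020, -0.043 and 0.20. In libraries labelled *Dicer* KO they were -0.0025, 0.010, -0.00018 and 0.14. Of the genes with 2 or more 8-base matches, 5 of 16, 4 of 18 and 4 of 18 were called higher in the 3 comparisons (31.2%, 22.2% and 22.2%) and 4, 2 and 3 lower (25.0%, 11.1% and 16.7%). Of the genes with no 7-base match, 21.0%, 18.6% and 16.8% were higher and 19.7%, 18.4% and 17.4% lower, so most of these counts were near that background. Their UTRs were longer, with a median of 4453 bases (the members included) against 861 in genes with no match. Of the 9 tested genes with 4 or more 7-base matches, 4 were members, of which *Trim71*, *Hmga2* and *Igf2bp1* rose in all 3 comparisons and *Lin28b* in none. The other 5 went both ways. *Nr6a1* rose in all 3, as given above, whereas *D10Wsu102e* fell by 0.51, 0.57 and 0.82 (adjusted p = 1.72e-06, 6.28e-07 and 2.18e-09) and *Hic2* by 0.43, 0.64 and 0.66 on the log2 scale (adjusted p = 0.00419, 0.000488 and 0.000269). The annotated 3′ UTR of *D10Wsu102e* is 122583 bases long, against 2220 to 6337 in the others of this set. Its 4 matches are thus spread over many more bases. *Trim6* was called higher in libraries labelled *Dicer* KO (log2 fold change 1.33, adjusted p = 0.00221) and not in the *Ago2* mutants (0.43 and 0.67, adjusted p = 0.282 and 0.134). *Nudt12*, with 7 matches, was at -0.73, -0.82 and -1.04 without passing (adjusted p = 0.150, 0.159 and 0.122).

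The genes whose pattern was closest to those of *Igf2bp2* and *Hmga2*, the 2 members with the highest mean CPM over all 14 libraries, were named by Pearson's r of log2 CPM over the 14 libraries, among 10233 other genes. For *Igf2bp2* they were *Osbpl9* (r = 0.988), *Prlr* (0.986) and *Gdap1* (0.985), and for *Hmga2* *Hsp90ab1* (0.994), *Ttc9c* (0.994) and *C130026I21Rik* (0.993). These values describe shared differences between 5 groups, and the libraries of a group share their genotype and, in the *Ago2* series, their lane.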

How the data were processed

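The authors amplified cDNA from lysed oocytes without strand information, aligned reads to mm10 with TopHat (TopHat2 2.0.7 per the labels), allowing up to 100 alignments, and counted them with htseq-count (HTSeq 0.6.1) on RefSeq transcripts. The deposited values are raw counts per transcript, with 5 tally lines that were left out (shares above). Reads were counted without regard to strand, so antisense reads cannot be told apart, and 1 read counts on each transcript it fits. Reads are amplified copies, so floors cover counting error only.

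Each comparison was fitted over all transcripts of its own libraries with edgeR 4.0.16 in R 4.3.3 (filterByExpr with a minimum count of 10 and total of 15, TMM, quasi-likelihood test, Benjamini-Hochberg adjustment, FDR 1%), and the code was tested on simulated counts. Adjusted p-values come from these edgeR fits, except those given without a library or under another named setting, which come from edgeR refits with that change. A standard error is the log2 fold change divided by the root of F. CPM used TMM over 14 libraries. The transcript with the highest mean count stood for a gene. RefSeq and GENCODE tables named 26081 and 113 IDs, and 301 had no symbol. The members and lists were chosen with earlier results of these data known. All 9 members were named, and of other lists up to 4 called genes with the largest change in *Ago2* ADH or libraries labelled *Dicer* KO; exceptions are said in place, and 1 gene of this rule is not reported here. Lists cover published targets, let-7 processing, silencing complexes and cell type markers. Likeness was taken from log2(CPM + 0.1), over genes with a mean of at least 100 counts. Nothing says more of the replicates than that each was a separate collection, so p-values measure the spread between pools. Alternatives were DESeq2 1.42.0 without independent filtering, RLE size factors, all 5 groups in 1 fit, an FDR of 5%, dropping the filter or asking for 10 counts in each library, 1 transcript per gene, the lowest-count transcript, each replicate left out and a replicate block. Plain library totals were added after seeing the data. Python 3.11.15, pandas 2.3.3, numpy 2.4.6 and matplotlib 3.10.9 were used for summaries and plots.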

Additional observations from a re-analysis of the deposited data

Results flagged for a closer look

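The *Hmga2* effect differed between the *Ago2* and the *Dicer* libraries by a test of the difference itself, edgeR's interaction term. The log2 difference was -0.48 for *Ago2* ADH minus *Dicer* KO and -0.61 for *Ago2* null minus *Dicer* KO. All 3 *Ago2* ADH and both *Ago2* null libraries (103 to 123 CPM) lay below the 3 libraries labelled *Dicer* KO (155 to 167 CPM), while the 6 control libraries spanned 53.2 to 57.5 CPM. The *Ago2* and *Dicer* libraries also differ in their sequencing lanes and in the share that tallies outside transcripts or of reads with several alignments made up of all counts and tallies (63.5 to 65.0% in the *Ago2* mutants and 52.7 to 58.4% in libraries labelled *Dicer* KO), and the part of these in the difference was not tested. No group had the 4 samples needed to look for single outlying libraries.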

How the results depend on the processing

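The rises of *Trim71*, *Hmga2* and *Igf2bp1* in all 3 comparisons and the *Hmga2* interactions kept their direction and call under every alternative run, and DESeq2 gave the same counts of called members as edgeR. With 1 library left out, members called lower numbered 1 to 2 in *Ago2* ADH, 0 to 2 in *Ago2* null and 1 to 3 in libraries labelled *Dicer* KO, where those called higher numbered 3 to 4. In *Ago2* null, where 1 was lower, 2 were lower without the low-count filter and 2 at an FDR of 5%; the cause was not tested. Replicate numbers did not pair the samples (correlations of same-numbered deviations -0.087 to 0.044). With the replicate block, 0 were lower in *Ago2* null (*Igf2bp2* adjusted p = 0.0151) and *Hmga1* lost its call in libraries labelled *Dicer* KO (adjusted p = 0.0176). *Hmga1* also lost it without a filter (adjusted p = 0.0109) and with plain library totals (adjusted p = 0.0426).

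Signs turned for effects that were not called in the report. *Lin28a* in *Ago2* ADH was at -0.0030 without a filter, -0.041 in the 5-group fit, -0.038 with library totals and -0.081 to 0.086 with 1 library left out. The *Igf2bp2* interaction was at -0.0030 with 10 counts in every library (*Ago2* ADH) and 0.042 with library totals (*Ago2* null), and ranged from -0.021 to 0.038 and -0.052 to 0.0052 with 1 library left out. Other left-out ranges across 0 were -0.012 to 0.085 (*Lin28b*, *Ago2* ADH), -0.079 to 0.27 (*Lin28b*, *Ago2* null), -0.18 to 0.11 (*Hmga1*, *Ago2* null), -0.28 to 0.062 (*Lin28b*, *Ago2* null interaction), and, for *Ago2* ADH against null, -0.23 to 0.11 (*Lin28b*), -0.018 to 0.23 (*Trim71*) and -0.11 to 0.095 (*Igf2bp3*).

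Over all transcripts, calls in *Ago2* ADH against null went from 23 to 81 with DESeq2, 94 without a filter, 56 at an FDR of 5%, 142 with the replicate block and 6 to 21 with 1 library left out. Interaction calls went from 692 to 1104 and from 598 to 964 with DESeq2, to 1638 and 1387 at an FDR of 5%, to 996 without a filter (*Ago2* null), to 227 with the block (*Ago2* null), and to 439 to 913 and 268 to 888 with 1 library left out. Depth limits *Igf2bp1* most, at 10 to 37 counts in controls.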
